A study of Mus musculus with 9 samples.

Results

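The 35 genes described here carry long-chain fatty acids into heart muscle cells and burn them in mitochondria. They were chosen by symbol and grouped by role: 4 genes of uptake, 5 of activation, thioester cleavage and lipid storage, 5 of the carnitine shuttle, 10 of the beta-oxidation spiral, 4 auxiliary enzymes, 3 of electron transfer and 4 regulators. All 35 were found among the 14479 genes of the deposited expression matrix, and all 35 were among the 13249 genes tested, whose average level over the 9 libraries reached 1 FPKM. FPKM, fragment counts scaled to transcript length and library size, is a level per transcript length. The libraries hold total RNA from the lower part of the ventricular apex of neonatal mice of the outbred strain CD-1. All 9 came from operated pups, with surgery on postnatal day 1 and heart collection on postnatal day 2. The sham group (3 libraries) had sham surgery and served as the control. The resection group (3 libraries) had the apex of the ventricle cut off, an injury that the newborn mouse heart can repair. The vagotomy group (3 libraries) had the same resection together with cutting of the vagus nerve, the parasympathetic nerve of the heart. Vagotomy without resection was not analysed here, so the vagotomy group differs from the sham group by both operations. Whether different libraries stand for different pups is not stated in the labels, so p-values measure only the spread between these samples.

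Fatty acids reach the heart muscle cell from lipoproteins split by lipase on the vessel wall, cross the membrane through carriers and travel bound to a small cytosolic protein. They are joined to coenzyme A, passed through the mitochondrial membranes as carnitine esters, and shortened by repeated rounds of dehydrogenation, hydration, oxidation and thiolysis. Acyl-CoA dehydrogenases of different chain-length preference start each round and hand their electrons to a flavoprotein that feeds the respiratory chain. The fetal heart relies largely on glucose and lactate, and the shift to fatty acids takes place in the days after birth, under nuclear receptors of the PPAR family and their coactivators.

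**Figure D1:**
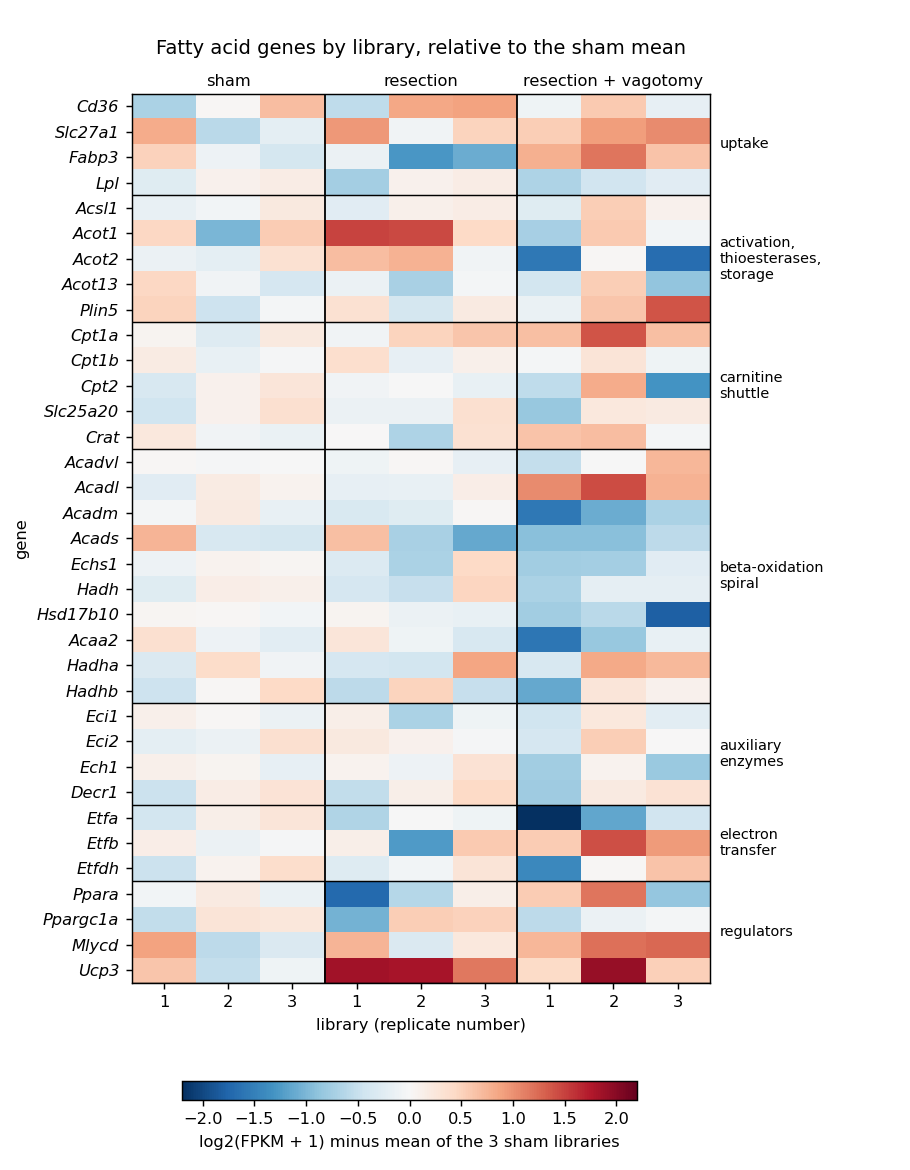
Each cell is the log2(FPKM + 1) of 1 gene (rows, ordered by role) in 1 library (columns, 3 per group) minus that gene's mean over the 3 sham libraries, from blue (lower) to red (higher). Fabp3 and Acadl are red and Acadm and Hsd17b10 blue in all 3 vagotomy libraries, and Ucp3 is red in all 3 resection libraries. Further rows keep to 1 side of the sham mean with vagotomy, among them Cpt1a and Etfb above and Etfa and Echs1 below. Rows mix both colours in sham because its mean is the reference.

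Several facts about the libraries bear on every value below. Median expression over all listed genes ranged from 7.52 to 8.29 FPKM per library, and the number of reads behind a value is unknown. In the vagotomy group, 2 of the 20 cardiomyocyte markers, the alpha myosin gene Myh6 and the cardiac actin gene Actc1, were listed at 0 in all 3 libraries. In the 6 other libraries, Myh6 was at 1326 FPKM or more and Actc1 at 3600 FPKM or more. The authors' deposited table of vagotomy against resection marks both as having too much data to quantify, so the zeros are failed estimates. The sarcomere genes Myl3 (at least 5818 FPKM in each vagotomy library, at most 1680 FPKM elsewhere) and Tnnc1 (at least 3017 against at most 1150 FPKM) rose against both other groups (limma, adjusted p from 0.0144 to 0.0294). Vagotomy replicate 3 held 18822 FPKM of Tnnt2, where no other library exceeded 4372 FPKM. The other 18 cardiomyocyte markers were above 0 in all 9 libraries. Without the failed estimates, the summed level of those 18 was 17089 to 19365 FPKM in sham, 12300 to 18556 FPKM after resection and 26657 to 62925 FPKM with vagotomy. Of all 20 markers, 17 had a higher mean log2(FPKM + 1) with vagotomy than after resection, with a median log2 change of 0.65. The part of these differences in the results below was not tested, and an effect of vagotomy cannot be told apart from an effect of how these 3 libraries were quantified. In bulk tissue, fewer cells of a type and less RNA per cell cannot be told apart either.

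Fabp3, Acadl and Acadm passed the limma threshold in a comparison below, and Ucp3 passed in none but had the largest log2 change after resection. The bases upstream of the starts of these genes are printed below because PPAR-type receptors bind such regions. Starts are those of RefSeq, cut back where the GENCODE gene begins earlier. The stretches of Acadl and Acadm therefore do not adjoin the GENCODE positions given for these genes below. The sequences are from RefSeq (GRCm38.p6), 5′ to 3′ on the gene's own strand, and stop before the first base annotated as transcribed. They cover chr4:130308488-130308594 (107 bases, plus strand) for Fabp3, chr1:66863310-66863559 (250 bases, minus strand) for Acadl, chr3:153944644-153944893 (250 bases, minus strand) for Acadm and chr7:100472741-100472989 (249 bases, plus strand) for Ucp3. Capitals mark the nuclear receptor core motif AGGTCA on either strand, which reads TGACCT on the other strand.
Fabp3: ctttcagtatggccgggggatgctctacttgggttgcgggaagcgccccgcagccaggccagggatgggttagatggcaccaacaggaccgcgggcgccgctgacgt
Acadl: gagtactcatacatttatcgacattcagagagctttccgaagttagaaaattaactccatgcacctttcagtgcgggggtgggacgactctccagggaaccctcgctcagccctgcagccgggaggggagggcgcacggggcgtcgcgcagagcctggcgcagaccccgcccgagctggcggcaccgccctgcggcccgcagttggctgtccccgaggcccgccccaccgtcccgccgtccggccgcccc
Acadm: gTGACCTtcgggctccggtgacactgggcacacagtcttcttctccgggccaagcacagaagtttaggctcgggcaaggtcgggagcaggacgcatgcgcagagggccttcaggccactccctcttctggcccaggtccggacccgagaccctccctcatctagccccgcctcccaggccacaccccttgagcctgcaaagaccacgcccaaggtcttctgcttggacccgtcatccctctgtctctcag
Ucp3: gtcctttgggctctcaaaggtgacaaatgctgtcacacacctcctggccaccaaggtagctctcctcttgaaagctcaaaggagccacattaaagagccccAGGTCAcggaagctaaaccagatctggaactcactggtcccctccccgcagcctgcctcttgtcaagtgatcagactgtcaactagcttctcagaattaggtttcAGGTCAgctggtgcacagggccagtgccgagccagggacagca
The core motif occurred 2 times upstream of Ucp3, 1 time upstream of Acadm and 0 times in the stretches printed for Fabp3 and Acadl. Of the 35 genes, 29 had a 250-base upstream window in the RefSeq table, with 33 windows in all, and 7 of the 33 (21.2%) held the motif (Acadm, Acadvl, Cd36, Cpt1a, Echs1, Plin5 and Ucp3). Over all 32851 windows of that length the share was 14.0%. The paired form AGGNCANAGGNCA, a direct repeat of a relaxed core with 1 base between the copies, was searched on both strands and was in 0 of the 33 windows and 0.338% of all windows. A match describes the letters only and is not evidence of binding.

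The levels themselves spread widely between the 35 genes, and the summed level differed less between groups than between the 3 vagotomy libraries. In sham, Fabp3, Acaa2, Acadm, Ech1 and Cd36 were the 5 most abundant, with means from 1179 down to 485 FPKM, and Ucp3 was the least abundant, at 5.28 FPKM. The sum over the 35 genes was 8461, 8287 and 8155 FPKM in the sham libraries, 7604, 7233 and 8552 FPKM after resection and 6755, 10380 and 8735 FPKM with vagotomy. The lowest and the highest of the 9 sums were thus vagotomy replicates 1 and 2. The transcripts had a median length of 2751 bases and a median GC content of 51.3%, against 3251 bases and 49.6% over the 13118 tested genes with a transcript in the annotation.

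Between resection alone and sham, no gene of the 35 differed by enough to pass the test, and the widest gaps were in Ucp3, Acot1 and Fabp3. With limma (two-sided, Benjamini-Hochberg adjustment over 13249 genes, threshold 0.05), 0 of 35 passed, beside 39 of 13249 genes (0.294%) over the whole matrix. At an unadjusted p under 0.05 there were 2 of 35, Ucp3 and Acot1, while 5.89% of all tested genes were below it. The median log2 change, on the log2(FPKM + 1) scale used throughout, was -0.06 over the 35 genes and -0.01 over all tested genes. The mean log2(FPKM + 1) was higher after resection for 16 genes and lower for 19, beside 6439 and 6810 of all tested genes. In the beta-oxidation spiral 9 of 10 of these means were lower, with log2 changes from -0.39 to 0.03, and none passed. Only Ucp3 had 3 resection libraries that all lay outside the range of the sham libraries, above it, while 10.8% of tested genes were separated in that way in either direction. The authors' deposited table of this comparison, made with Cuffdiff, calls 3 of the 35 at its q under 0.05 (Acot1 and Ucp3 higher, Fabp3 lower), beside 6.12% of the 14011 genes with a q there. The smallest p of an exact permutation test in this design is 0.1, so single-gene calls rest on the spread that limma shares across genes.

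With vagotomy added, the fatty acid binding protein gene Fabp3 rose against resection alone. It was the only one of the 35 past the limma threshold in the main fit, which did not pair libraries by number. The background was 466 of 13249 genes (3.52%). The fit with the replicate number of all 9 libraries as a block, sham included, called 2. They were Fabp3 (limma adjusted p = 0.0299) and Acadl (limma adjusted p = 0.0407, log2 change 1.15), beside 9.64% of all tested genes in that fit. At an unadjusted p under 0.05 there were 8 of 35, near the share of all tested genes (24.2%): Fabp3, Acadl and Etfb with higher means and Acot2, Hsd17b10, Acadm, Acot1 and Etfa with lower ones. The mean log2(FPKM + 1) was higher for 14 genes and lower for 21, with a median log2 change of -0.09 against 0.02 over all tested genes. The 3 libraries of each group were fully separated for 5 genes, Fabp3, Acadl and Cpt1a above and Acadm and Hsd17b10 below, where 26.2% of all tested genes were separated. The authors' deposited table calls 9 of the 35, beside 17.1% of 14083 genes: Fabp3, Acadl, Etfb and Mlycd higher, and Acot1, Acot2, Acadm, Hsd17b10 and Etfa lower. The median of the 35 genes depended on single libraries: it was 0.19 without vagotomy replicate 1 and -0.31 without vagotomy replicate 2.

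Against sham, the vagotomy group differed in opposite directions for neighbouring dehydrogenases: Acadl, the long-chain acyl-CoA dehydrogenase, rose and Acadm, the medium-chain enzyme, fell. These 2 of 35 genes passed the limma threshold, beside 1334 of 13249 genes (10.1%). At an unadjusted p under 0.05 there were 7 of 35, where 30.1% of all tested genes were below it, the others being Hsd17b10, Cpt1a, Etfa, Mlycd and Acot2. The mean log2(FPKM + 1) was higher for 16 genes and lower for 19, and the median log2 change was -0.09 against 0.03 over all tested genes. The groups did not overlap for 9 genes, with Fabp3, Acadl, Cpt1a and Etfb above sham and Acadm, Hsd17b10, Echs1, Acads and Etfa below it, while 36.7% of all tested genes did not overlap. This comparison shares its vagotomy libraries with the comparison against resection and its sham libraries with that of resection against sham, so the 3 comparisons are not independent of each other. Replicate 1 of the vagotomy group had the lowest value of all 9 libraries for 12 of the 35 genes and replicate 2 the highest for 12. Their median deviations from the sham mean over the 35 genes were -0.52 and 0.29 on the log2 scale. Over all tested genes those deviations were -0.04 and 0.04.

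**Figure D2:**
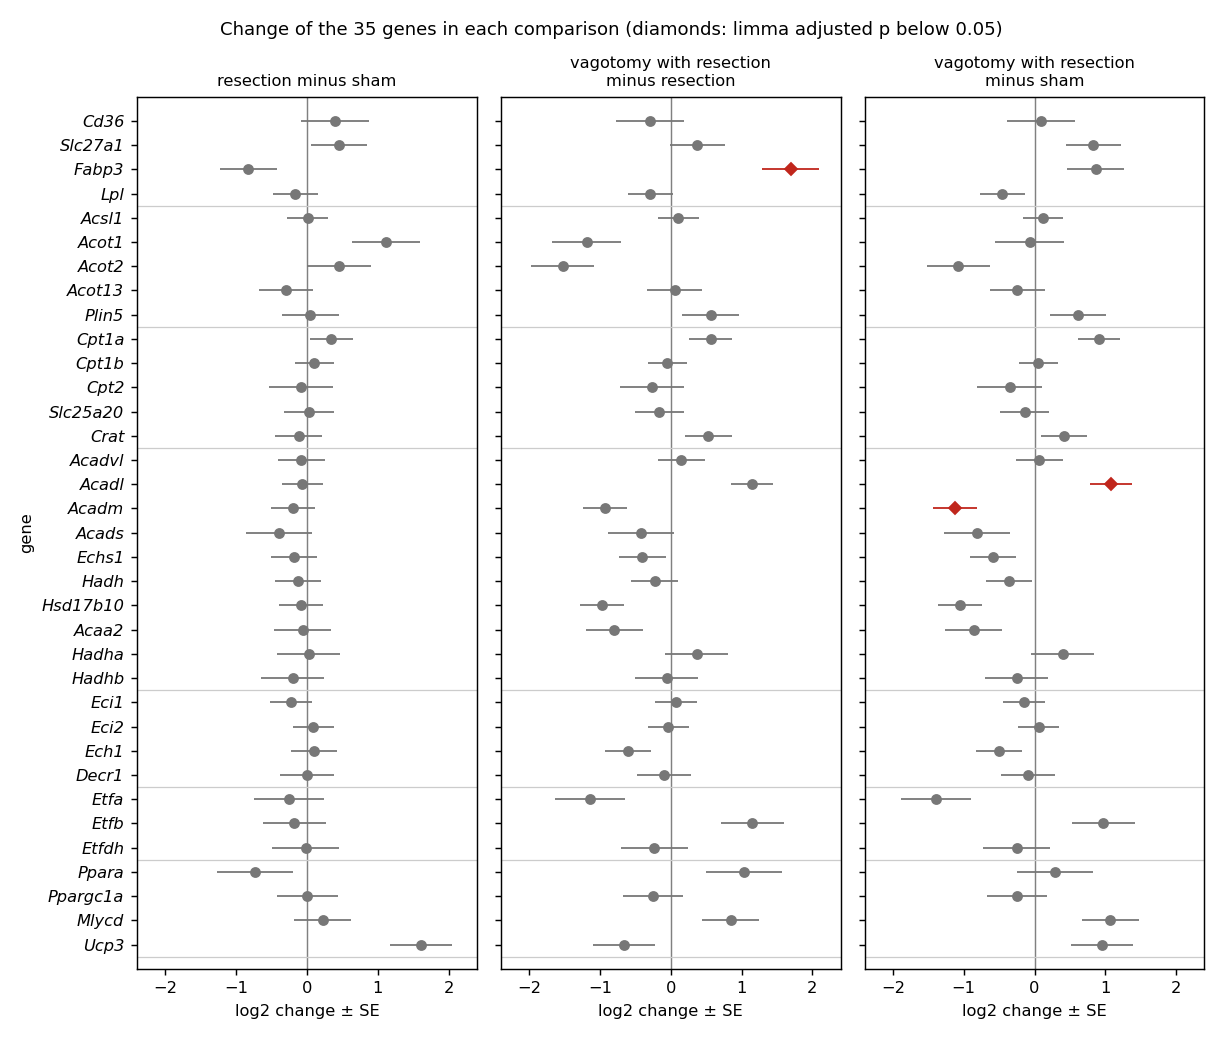
Log2 change ± SE (limma, horizontal axis) of each of the 35 genes (vertical axis, ordered by role) in the 3 comparisons, with red diamonds for genes past the adjusted threshold. Diamonds appear for Fabp3 in vagotomy with resection minus resection and for Acadl and Acadm in vagotomy with resection minus sham, and none appears in resection minus sham.

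Among the 4 uptake genes, Fabp3, the cytosolic carrier of fatty acids in muscle, was the most abundant in all 3 groups. In sham its 3 libraries were at 1618, 1051 and 869 FPKM, after resection at 1047, 470 and 533 FPKM, and with vagotomy at 1949, 2582 and 1769 FPKM. Every vagotomy library exceeded every other library, and the resection libraries overlapped the sham range only through replicate 1. The means were 1179 ± 391, 683 ± 316 and 2100 ± 427 FPKM (SD, n = 3), so the vagotomy mean was 3.07 times the resection mean. The log2 change of vagotomy against resection was 1.69 ± 0.40 (SE, limma adjusted p = 0.0482). This call was lost when any 1 of 8 libraries was left out (limma adjusted p from 0.0551 to 0.174) and held without resection replicate 1 (0.0332). In the 8 fits that lost the call, 0.317% to 2.57% of all tested genes passed, against 3.52% with all libraries. The change was 0.86 ± 0.40 against sham (limma adjusted p = 0.178) and -0.83 ± 0.40 for resection against sham (limma adjusted p = 0.935). The authors' deposited table of resection against sham calls that last difference, with group values of 1200 and 695 FPKM and q = 0.00297. Fabp3 lies at chr4:130308595-130315463 (GRCm38, plus strand), and its deposited locus also spans Zcchc17 and Gm10570, so fragments from overlapping exons cannot be assigned with certainty.

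Slc27a1, a long-chain fatty acid transporter with acyl-CoA synthetase activity, was at 43.9, 15.9 and 20.9 FPKM in sham, 48.2, 23.1 and 34.9 FPKM after resection, and 36.0, 47.1 and 51.1 FPKM with vagotomy. Sham replicate 1 lay inside the vagotomy range, and the log2 change of vagotomy against sham was 0.83 ± 0.39 (limma adjusted p = 0.181). Cd36, the main membrane translocase, varied widely within each group, with 279, 457 and 719 FPKM in sham alone, and its means were 485, 652 and 497 FPKM. The triglyceride lipase gene Lpl had means of 356, 327 and 260 FPKM in sham, resection and vagotomy. Neither gene passed in any of the 3 comparisons, and their groups overlapped. With library weights Lpl passed against sham (log2 change -0.59, limma adjusted p = 0.0432).

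The activation, thioesterase and storage genes held the largest negative log2 change of the 35 genes against resection. Acot2, a mitochondrial acyl-CoA thioesterase that releases free fatty acid from its coenzyme A ester, was at 73.0, 69.3 and 102 FPKM in sham, at 129, 137 and 75.8 FPKM after resection and at 26.4, 81.2 and 24.3 FPKM with vagotomy. Vagotomy replicates 1 and 3 were below all other libraries, and replicate 2 was inside the sham and resection ranges. The log2 change of vagotomy against resection was -1.53 ± 0.45 (limma adjusted p = 0.079), and against sham it was -1.08 ± 0.45 (limma adjusted p = 0.136). Without vagotomy replicate 2 Acot2 passed in both comparisons, with log2 changes of -2.08 (limma adjusted p = 0.0362) and -1.62 (0.0374). Its cytosolic paralog Acot1, given here after its values were seen, was at 21.4, 7.20 and 23.0 FPKM in sham, 44.8, 43.6 and 21.1 FPKM after resection and 8.90, 23.5 and 14.7 FPKM with vagotomy. The log2 changes of Acot1 were 1.12 ± 0.48 for resection against sham (limma adjusted p = 0.799) and -1.19 ± 0.48 for vagotomy against resection (limma adjusted p = 0.169). The authors' deposited tables call both of those differences in Acot1. The paralogs are close in sequence and neighbours on chromosome 12, so the split of fragments between them is uncertain.

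Plin5, a lipid droplet coat protein that links droplets to mitochondria, was at 13.0, 6.21 and 8.68 FPKM in sham, 11.5, 6.62 and 10.3 FPKM after resection, and 7.97, 14.1 and 24.8 FPKM with vagotomy. Its highest values were in vagotomy replicates 2 and 3, while replicate 1 stayed within the sham range, and its log2 change against sham was 0.61 ± 0.40 (limma adjusted p = 0.327). Acsl1, the main acyl-CoA synthetase of the heart, was among the steadiest members, with means of 175 ± 23.8, 177 ± 26.1 and 194 ± 54.4 FPKM (SD, n = 3). Acot13 had means of 82.7, 66.6 and 73.7 FPKM and overlapped between all groups.

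In the carnitine shuttle, the muscle form of carnitine palmitoyltransferase 1, Cpt1b, which makes the acylcarnitine at the outer membrane, had the lowest variation of the 35 genes. Its coefficient of variation over the 9 libraries was 13.9%, with means of 293 ± 35.9 FPKM in sham, 316 ± 58.4 FPKM after resection and 305 ± 45.6 FPKM with vagotomy (SD, n = 3). Its deposited locus also holds Chkb. Cpt1a, the liver form that the fetal and newborn heart also expresses, was at 20.3, 15.6 and 22.7 FPKM in sham, 18.3, 27.7 and 30.1 FPKM after resection and 31.2, 52.3 and 31.2 FPKM with vagotomy. All 3 vagotomy libraries were above the 6 others, although the highest resection library came close. The log2 change of Cpt1a was 0.91 ± 0.30 against sham (limma adjusted p = 0.0754), 0.56 ± 0.30 against resection (limma adjusted p = 0.275) and 0.35 ± 0.30 for resection against sham (limma adjusted p = 1). It passed in none of the alternatives except library weights against sham (log2 change 1.23, limma adjusted p = 0.00327).

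The ratio of Cpt1a to Cpt1b, 2 isoforms of the same step, was 0.0611, 0.0600 and 0.0790 in the sham libraries, 0.0486, 0.107 and 0.0955 after resection and 0.110, 0.146 and 0.114 with vagotomy. The means were 0.0667 ± 0.0107, 0.0838 ± 0.0310 and 0.124 ± 0.0199 (SD, n = 3). Every vagotomy ratio was above every other, the resection ratios spanned the sham range, and Cpt1b remained the more abundant isoform in all 9 libraries. Crat, which forms acetylcarnitine, was at 139, 112 and 106 FPKM in sham, 119, 73.6 and 149 FPKM after resection and 184, 190 and 115 FPKM with vagotomy. Vagotomy replicate 3 lay inside both other ranges, and the log2 change against sham was 0.42 ± 0.33 (limma adjusted p = 0.423). Cpt2, which restores the acyl-CoA inside the mitochondrion, and the carrier Slc25a20 had log2 changes from -0.35 to 0.03 over the 3 comparisons. Cpt2 spread from 41.1 to 183 FPKM within the vagotomy group, against 92.5 to 102 FPKM within the resection group.

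Of the 10 genes of the beta-oxidation spiral, Acadl rose and Acadm fell with vagotomy against sham, and the other 8 did not pass. In that comparison 7 of 10 vagotomy means were lower and 3 were higher (Acadl, Acadvl and Hadha), with a median log2 change of -0.47. Over all tested genes 6385 of 13249 had a lower mean log2(FPKM + 1), and the median log2 change was 0.03. Acadl was at 268, 360 and 335 FPKM in sham, 280, 286 and 354 FPKM after resection and 659, 861 and 543 FPKM with vagotomy. Sham and resection libraries shared the same range, and the lowest vagotomy library was above all 6. The mean was 688 ± 161 FPKM with vagotomy against 321 ± 47.6 FPKM in sham (SD, n = 3), 2.14 times as high. The log2 change was 1.08 ± 0.29 against sham (limma adjusted p = 0.0440) and 1.15 ± 0.29 against resection (limma adjusted p = 0.0585). The call against sham was lost when any 1 of the 3 sham or 3 vagotomy libraries was left out (limma adjusted p from 0.0529 to 0.134) and held without each resection library (0.0411 to 0.0492). In the fits that lost the call, 0.755% to 8.92% of all tested genes passed, against 10.1% with all libraries. By level Acadl ranked 8 of 35 in sham, 9 after resection and 2 with vagotomy.

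Acadm was at 691, 822 and 637 FPKM in sham, 567, 589 and 726 FPKM after resection and 239, 332 and 437 FPKM with vagotomy. The highest vagotomy library was below the lowest of the other 6. The mean was 716 ± 94.9 FPKM in sham and 336 ± 98.8 FPKM with vagotomy (SD, n = 3), so that sham was 2.13 times as high. The log2 change was -1.12 ± 0.31 against sham (limma adjusted p = 0.0470), -0.93 ± 0.31 against resection (limma adjusted p = 0.110) and -0.19 ± 0.31 for resection against sham (limma adjusted p = 1). The call against sham held without resection replicate 1 (limma adjusted p = 0.0441) or vagotomy replicate 3 (0.0491) and was lost without any 1 of the other 7 libraries (0.0513 to 0.189). In those 7 fits 0.755% to 11% of all tested genes passed. The rank of Acadm by level went from 3 of 35 in sham and 4 after resection to 8 with vagotomy. Acadm is at chr3:153922357-153944632 and Acadl at chr1:66830839-66863277 (GRCm38, both on the minus strand). The deposited locus of Acadl also holds 2 unnamed gene models, Gm15793 and Gm26010.

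**Figure D3:**
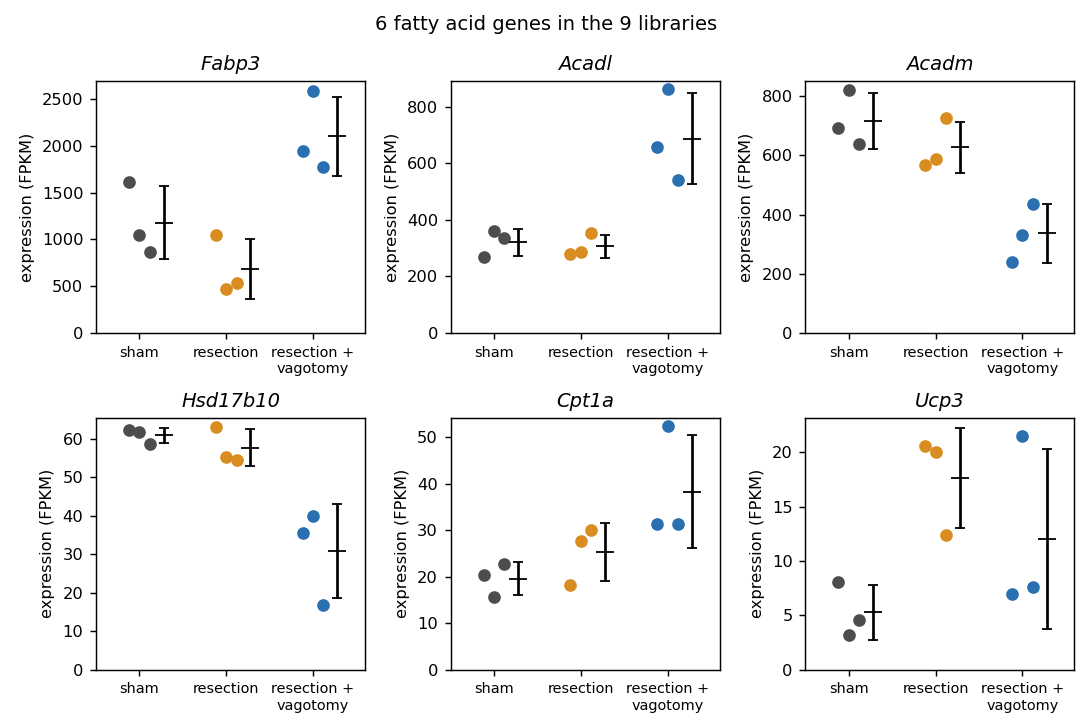
Expression (FPKM, linear axis from 0) of 6 genes in the 3 libraries of each group, with the bar and whiskers at mean ± SD. The vagotomy libraries are all above sham for Fabp3, Acadl and Cpt1a and all below for Acadm and Hsd17b10, and the 3 resection libraries of Ucp3 are all above sham.

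The other dehydrogenases bracketed these 2 in chain length. Acadvl, for very long chains, had a sham mean of 289 ± 5.93 FPKM and vagotomy libraries at 201, 286 and 482 FPKM, so its group means of 289, 273 and 323 FPKM came with a wide vagotomy spread. Acads, for short chains, was at 44.9, 44.8 and 57.4 FPKM with vagotomy, below all 3 sham libraries (lowest 65.4 FPKM), and its log2 change of -0.81 ± 0.46 did not pass (limma adjusted p = 0.267). Hsd17b10, a hydroxyacyl-CoA dehydrogenase that also serves in mitochondrial RNA processing, is described here after its values were seen. Its sham libraries were at 62.3, 61.7 and 58.5 FPKM, its resection libraries at 63.1, 55.2 and 54.5 FPKM and its vagotomy libraries at 35.5, 39.9 and 16.9 FPKM. No vagotomy library reached the others, and the log2 change was -1.05 ± 0.31 against sham (limma adjusted p = 0.0577) and -0.97 ± 0.31 against resection (limma adjusted p = 0.102). Hsd17b10 passed against sham in 3 of the alternatives, among them library weights (limma adjusted p = 0.0103) and the removal of the trend with GC content and length (0.0191), and with the latter also against resection (0.0394).

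The hydratase Echs1 had vagotomy libraries at 124, 125 and 176 FPKM, all below the sham minimum of 194 FPKM (log2 change -0.59 ± 0.33, limma adjusted p = 0.254). The thiolase Acaa2, the second most abundant of the 35 genes in sham, had means of 1089 ± 245, 1042 ± 223 and 640 ± 304 FPKM (SD, n = 3), with a log2 change against sham of -0.86 ± 0.40 (limma adjusted p = 0.179). Vagotomy replicate 3, at 960 FPKM, lay inside the sham range of Acaa2, and replicates 1 and 2, at 356 and 603 FPKM, did not. The hydroxyacyl-CoA dehydrogenase Hadh had means of 265, 251 and 207 FPKM. The subunits of the trifunctional protein, Hadha and Hadhb, had log2 changes against sham of 0.40 ± 0.45 and -0.25 ± 0.44, neither past the threshold.

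None of the 4 auxiliary enzymes, which prepare unsaturated chains for the spiral, passed in any comparison. Ech1, a dienoyl-CoA isomerase, was at 609, 591 and 497 FPKM in sham, 592, 523 and 706 FPKM after resection and 330, 591 and 319 FPKM with vagotomy. Vagotomy replicate 2 lay within the sham range and the 2 others were the lowest of all 9 libraries, with a log2 change against sham of -0.51 ± 0.32 (limma adjusted p = 0.318). Eci1, an enoyl-CoA isomerase, was at 129, 122 and 109 FPKM in sham, 131, 73.0 and 111 FPKM after resection and 88.3, 140 and 102 FPKM with vagotomy, with overlapping groups (log2 change against sham -0.14 ± 0.30, limma adjusted p = 0.784). Eci2 had group means from 66.1 to 70.2 FPKM and the reductase Decr1 from 59.5 to 62.4 FPKM.

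The electron transfer flavoprotein, which collects electrons from all the acyl-CoA dehydrogenases, has an alpha and a beta subunit, and their genes differed in opposite directions with vagotomy, neither past the limma threshold. Etfa was at 195, 284 and 312 FPKM in sham, 162, 258 and 241 FPKM after resection and 41.0, 117 and 193 FPKM with vagotomy. Etfb was at 246, 204 and 219 FPKM in sham, 242, 92.8 and 334 FPKM after resection and 327, 598 and 425 FPKM with vagotomy. Against sham all 3 vagotomy libraries were lower for Etfa and all 3 higher for Etfb, with log2 changes of -1.39 ± 0.50 (limma adjusted p = 0.0934) and 0.97 ± 0.45 (limma adjusted p = 0.172). Among the alternatives, Etfa passed against sham with the replicate block (limma adjusted p = 0.0283) and both genes with library weights (0.0040 and 0.0160). In those fits 18.2% and 39.6% of all tested genes passed. The authors' deposited table of vagotomy against resection calls Etfa lower (q = 0.0178) and Etfb higher (q = 0.000995). The oxidoreductase gene Etfdh, which passes the electrons on to ubiquinone, had means of 192 ± 54.2, 186 ± 36.8 and 183 ± 110 FPKM (SD, n = 3).

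Ratios between partner genes within a library do not depend on a linear scaling of the library. Those of Acadl to Acadm, Etfa to Etfb and Hadha to Hadhb were chosen after their values were seen and are given as descriptions. Acadl to Acadm was 0.388, 0.438 and 0.527 in sham, 0.493, 0.485 and 0.488 after resection and 2.75, 2.59 and 1.24 with vagotomy. The medium-chain gene was thus the more abundant in all 6 libraries without vagotomy and the long-chain gene in all 3 with it. Etfa to Etfb was 0.791, 1.39 and 1.42 in sham, 0.670, 2.78 and 0.722 after resection and 0.125, 0.195 and 0.454 with vagotomy, every vagotomy ratio being below every other. Hadha to Hadhb, whose products form 1 complex, varied from 0.886 to 4.27 among the resection libraries alone, a range that held all other libraries.

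**Figure D4:**
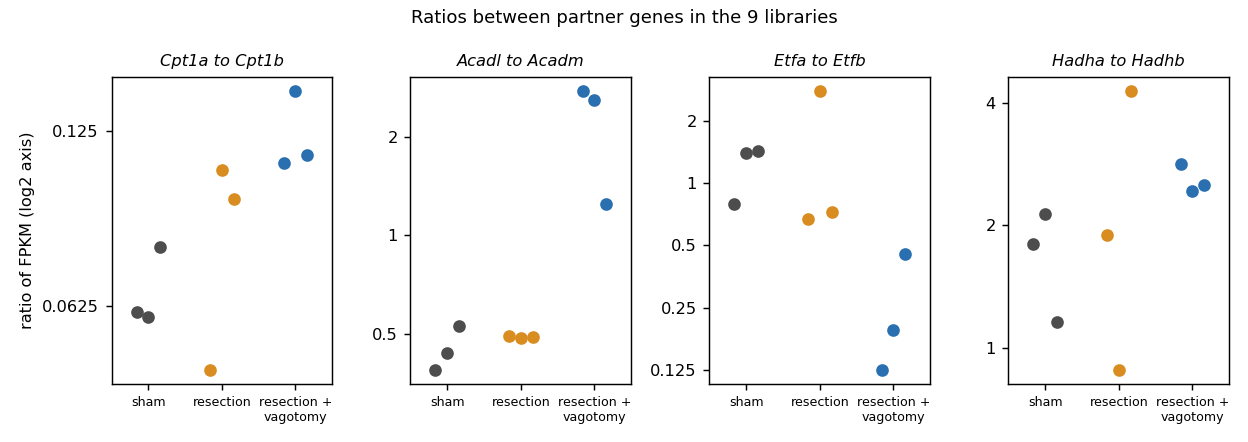
Ratio of FPKM between partner genes (vertical log2 axes, each with its own scale) in each of the 9 libraries, 3 points per group. The vagotomy points lie above all others for Cpt1a to Cpt1b and Acadl to Acadm and below all others for Etfa to Etfb, and they lie within the resection range for Hadha to Hadhb.

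Of the 4 regulators, Mlycd, whose product degrades malonyl-CoA, the inhibitor of carnitine palmitoyltransferase 1, was at 19.9, 6.62 and 8.12 FPKM in sham, 18.1, 8.07 and 12.3 FPKM after resection and 17.9, 25.2 and 26.3 FPKM with vagotomy. Sham replicate 1 lay above the lowest vagotomy library, and the log2 change against sham was 1.07 ± 0.40 (limma adjusted p = 0.109). Without sham replicate 1 it was 1.51 and passed (limma adjusted p = 0.0346). Ucp3, a mitochondrial carrier of muscle that is induced by fatty acids, had the lowest level of the 35 genes in sham and the highest coefficient of variation, 62.2%. It was at 8.09, 3.17 and 4.59 FPKM in sham, 20.6, 20.0 and 12.4 FPKM after resection and 6.94, 21.5 and 7.61 FPKM with vagotomy. All 3 resection libraries were above all 3 sham libraries, and vagotomy replicate 2 was with the resection libraries while its 2 partners were in the sham range.

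The log2 change of Ucp3 for resection against sham was 1.61 ± 0.43, a ratio of means of 3.34, with a limma p of 0.00366 and an adjusted p of 0.276. The authors' deposited table calls it higher, from 5.37 to 17.9 FPKM with q = 0.0151. Its deposited locus also spans C2cd3 and an unnamed gene model, so at these low levels fragments of other genes there cannot be told apart from its own. Ppara, the receptor of this pathway, had resection libraries at 4.42, 10.5 and 18.4 FPKM and vagotomy libraries at 25.2, 39.1 and 8.81 FPKM, around a sham mean of 16.9 ± 2.18 FPKM (SD, n = 3). The coactivator gene Ppargc1a had means of 39.5, 42.9 and 32.5 FPKM. Both overlapped between all groups, with limma adjusted p of 0.269 or more.

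Related pathways were read from lists of genes outside the 35, each described by its counts. After resection 0 genes of any of the 12 lists passed the limma threshold, beside 0.294% of all tested genes. All 20 citric acid cycle genes had a lower mean log2(FPKM + 1) than in sham (median log2 change -0.29). So had 30 of 32 nuclear-encoded respiratory chain genes (-0.34), beside 6810 of all 13249 tested genes. Genes of a list are not independent observations, and no test was run over a list. Among 11 further PPAR-responsive genes the median was 0.51, with Pdk4, which shuts off pyruvate oxidation, at 29.6, 21.8 and 54.8 FPKM in sham and 61.6, 131 and 98.3 FPKM after resection. The groups of Pdk4 did not overlap, and its log2 change of 1.47 ± 0.48 did not pass (limma adjusted p = 0.451). No gene of that list passed with vagotomy either.

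Next to uptake and activation, 1 of 17 genes passed: the acyl-CoA binding protein gene Dbi rose with vagotomy against resection, from 165 ± 40.3 to 465 ± 186 FPKM (SD, n = 3, log2 change 1.45 ± 0.33, limma adjusted p = 0.0449). Of 16 peroxisomal oxidation genes 1 passed in each vagotomy comparison, both higher. Over all tested genes 3.52% passed with vagotomy against resection and 10.1% against sham. Pecr, a trans-enoyl-CoA reductase, rose against resection (log2 change 1.27 ± 0.24, limma adjusted p = 0.0277). The peroxisomal thiolase Acaa1a rose against sham (1.50 ± 0.42, limma adjusted p = 0.0474). Of 19 further mitochondrial acyl-CoA enzymes 0 passed, and of 6 carnitine synthesis and transport genes 0 passed. The smallest p values there belonged to the epimerase Mcee (log2 change -0.92 against sham, limma adjusted p = 0.051) and to Aldh9a1 of carnitine synthesis (0.81, limma adjusted p = 0.0596).

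With vagotomy against sham, 10.1% of all tested genes passed the limma threshold. Of 21 triglyceride storage and lipolysis genes, 2 rose in that comparison: Dgat2, the last step of triglyceride synthesis (1.20 ± 0.28, limma adjusted p = 0.0278), and Lipe, the hormone-sensitive lipase (1.52 ± 0.38, limma adjusted p = 0.0362). The median of that list was 0.56. Of 27 further regulators 3 rose against sham: the PPAR partner Rxra (1.17, limma adjusted p = 0.0308), the kinase Stk11 (1.69, limma adjusted p = 0.0370) and Prkag1, a subunit of AMP-activated kinase (1.26, limma adjusted p = 0.0443). The list's median was -0.05. Of 6 ketone body genes 1 fell, the ketone and lactate carrier Slc16a1 (-1.24, limma adjusted p = 0.0417), and of 14 genes of malonyl-CoA and fatty acid synthesis 1 fell, the desaturase Fads2 (-0.89, limma adjusted p = 0.0377).

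Oxidative genes beyond the spiral were called in both directions with vagotomy. Of 32 respiratory chain genes, 4 rose and 1 fell with vagotomy against resection, and 2 rose and 5 fell against sham. Over all tested genes 3.52% passed against resection and 10.1% against sham. Cox6b1 (log2 change 1.52) and Sdhc (1.51) rose and Ndufs3 fell (-1.24) against sham, with limma adjusted p of 0.0335, 0.0313 and 0.0174. Cytochrome c, Cycs, rose against resection (1.70, limma adjusted p = 0.0337), and its log2 change against sham was 1.02 (limma adjusted p = 0.0796). Of 20 citric acid cycle genes 1 fell against sham, Idh3a (-1.08, limma adjusted p = 0.0489). Of 21 glycolysis and glucose uptake genes 3 rose against sham and 0 fell, with a median of 0.79. They were the lactate exporter Slc16a3 (2.24, limma adjusted p = 0.0185), the pyruvate kinase gene Pkm (1.80, limma adjusted p = 0.0312) and the hexokinase gene Hk1 (1.13, limma adjusted p = 0.0362). Against resection 2 of the 21 rose, Pkm (1.95, limma adjusted p = 0.0405) and Gpi1 (1.18, limma adjusted p = 0.0425).

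Markers of other cell types moved with the groups and are given beside these results. Over all tested genes 0.294% passed after resection, 3.52% with vagotomy against resection and 10.1% with vagotomy against sham. Of 18 tested monocyte and macrophage markers 3 rose after resection and 9 rose with vagotomy against sham. The summed level of all 19 listed ones was 69.4 to 97.3 FPKM in sham, 212 to 365 FPKM after resection and 347 to 377 FPKM with vagotomy. Tyrobp (log2 change against sham 3.58 with vagotomy), Cd14 (3.80), Lyz2 (2.29) and Laptm5 (1.98) had the smallest p values among the tested markers. Against resection, 2 of these markers rose with vagotomy, Tyrobp (1.81, limma adjusted p = 0.0244) and Laptm5 (1.39, limma adjusted p = 0.0312). Of 7 tested neutrophil markers 1 rose after resection and 3 with vagotomy. The summed level of all 9 listed ones was 20.1 to 42.7, 203 to 287 and 110 to 312 FPKM. The gene that rose after resection was S100a8 (log2 change 2.99), which fell with vagotomy against resection (-1.94), and those that rose with vagotomy against sham were S100a9 (4.12), Retnlg (3.49) and Csf3r (1.92). Of 12 fibroblast markers 1 rose with vagotomy against sham (Gsn, 1.37), and of 12 endothelial markers 1 fell (Emcn, -1.58). Most of each list went the other way. In that comparison 8 of 12 fibroblast markers had a lower mean log2(FPKM + 1), with a median log2 change of -0.22. Of the endothelial markers 8 of 12 had a higher one, with a median of 0.12. Over all tested genes 6385 of 13249 were lower. Emcn also fell with vagotomy against resection (-1.72, limma adjusted p = 0.0169).

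Summed fibroblast levels overlapped between groups, at 1944 to 2640, 1830 to 2337 and 1803 to 2311 FPKM, as did endothelial ones, at 449 to 904, 520 to 879 and 592 to 762 FPKM. Only 3 of 10 adipocyte markers were listed, with sums of 8.70 to 15.0, 15.7 to 32.6 and 20.5 to 28.9 FPKM, and 1 of them, Lipe, rose as given above. Erythroid sums over 7 listed markers were 439 to 1354, 794 to 4352 and 362 to 655 FPKM. Of 6 tested erythroid markers 1, Hba-a2, rose with vagotomy against sham (2.31, limma adjusted p = 0.0313). By mean log2(FPKM + 1), 3 of these 6 were higher and 3 lower against sham (median log2 change -0.20). Against resection 5 of the 6 were lower (-0.83). Of 3 tested skeletal muscle markers 0 passed, and sums over all 4 listed ones were 354 to 774, 227 to 804 and 394 to 769 FPKM. The part of these cell types in the values of the 35 genes was not tested.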

How the data were processed

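RNA sequencing of 9 ventricle libraries, 3 in each of 3 groups, was analysed from gene tables. The deposited matrix holds FPKM to which the authors had added a pseudocount of 1. The authors' deposited comparison tables hold group FPKM, p-values and q-values. The submitters' processing notes name Cuffdiff 2.1.1, Cufflinks 2.1.1, TopHat2 2.0.9 and the GRCm38 genome. The annotation and the strand setting are not given in the sources used here. Read counts were not used, so depth and counting error are unknown.

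The pseudocount was subtracted, genes whose average reached 1 FPKM were kept, and log2(FPKM + 1) was fitted with limma 3.58.1 (R 4.3.3), with 1 mean per group, all 9 libraries and a mean-variance trend. The log scale understates the change of low genes. Tests were two-sided with Benjamini-Hochberg adjustment over 13249 genes. The procedure was run on simulated data with independent noise in each gene and library. Those data held no shifts of whole libraries and no failed estimates, so its behaviour under such conditions was not tested. Gene positions, lengths and GC content are from GENCODE M21 (GRCm38), which held 14307 of the 14479 genes. The matrix group means were 0.983 times the group values of the authors' table of resection against sham and 1.00 times those of the other.

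Values per library are given for genes past the threshold and, in each role, for the 2 genes with the smallest p in vagotomy against sham. Of other lists, up to 4 genes past the threshold were named, or the 1 with the smallest p. Outside this rule, values per library of Acot1, Hsd17b10, Cd36, Acadvl, Acads, Echs1, Acaa2, Ppara and some sample ranges were added after they were seen. The 35 genes and all lists were chosen with earlier results of these data known. Alternatives were other pseudocounts (0.1 and 5), filters (none, 5 FPKM), scalings, variance moderation, library weights, the 6 libraries compared, a replicate block and each library left out. The removal of a trend with GC content and length was added after seeing the data. Deviations of same-numbered libraries from their group means correlated with r = 0.199, 0.141 and 0.117 between resection and vagotomy. For libraries of different number r was -0.131 to -0.021. These numbers were taken as pairs on that ground, which is weak with 3 libraries per group. Pairs entered only the replicate block, and the main fit and its adjusted p-values did not use them. In the deposited columns, however, the third resection and sham libraries are numbered 7 and 9, so the third pair rests on the titles alone. The deviations correlated with r = 0.498, 0.197 and 0.013 between sham and resection and 0.186, 0.170 and -0.019 between sham and vagotomy. Pairing was not concluded there, but the replicate block used the numbers of all 9 libraries, sham included. All results of the block therefore also rest on the numbers of the sham libraries.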

Additional observations from a re-analysis of the deposited data

How the results depend on the processing

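Counts of genes past the limma threshold varied with the settings, and all 3 calls lay close to it. Against resection the count of 1 became 0 with a pseudocount of 5, without a filter, with upper-quartile scaling or with only the 6 libraries compared. In those fits 3.1%, 3.09%, 3.74% and 0.219% of all genes passed, in that order, against 3.52% in the main fit. The count became 2 without the trend, with library weights or with the replicate block, and 3 after removal of the GC and length trend. There 3.51%, 5.30%, 9.64% and 10.3% of all genes passed. Leaving out single libraries gave 0 to 1, when 0.317% to 4.46% of all genes passed. Against sham the count of 2 became 1 with a pseudocount of 5, upper-quartile scaling, quantile scaling or only the 6 libraries compared. In those fits 8.91%, 10.3%, 10.6% and 11.1% of all genes passed, in that order. The count became 14 with library weights, 4 with the replicate block (Hsd17b10, Acadl, Etfa and Acadm), and 4 after removal of the GC and length trend (Hsd17b10, Acadl, Acads and Acadm). There 39.6%, 18.2% and 17.9% of all genes passed. Leaving out single libraries gave 0 to 2, when 0.755% to 12.8% of all genes passed. For resection against sham the count was 0 in every alternative, the replicate block included, when 0.083% to 1.59% of all genes passed. Of 21 alternatives, Fabp3 passed against resection in 9 (log2 change 1.47 to 2.05), Acadl against sham in 13 (0.91 to 1.24) and Acadm against sham in 12 (-1.33 to -0.90), each in 1 direction throughout. The median of the 35 genes against sham was -0.09, 0.00 after removal of the GC and length trend, -0.17 with upper-quartile and -0.16 with quantile scaling, and -0.30 to 0.19 when single libraries were left out (lowest without vagotomy replicate 2, highest without vagotomy replicate 1). At a q under 0.01 the authors' tables call 2 and 6 genes in place of 3 and 9. The share of all genes at that stricter q was not computed. With FPKM alone, a call missed for want of depth cannot be told from one missed for spread between libraries.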
